A study of Mus musculus with 32 samples.

Results

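The Fc receptor family is described here through 7 genes, found by symbol among the 23337 genes of the deposited count table: Fcgr1, Fcgr2b, Fcgr3, Fcgr4, Fcer1g, Fcgrt and Fcrls. All 7 had counts in every macrophage library and passed the filter on low counts. RNA had been sequenced from cells sorted out of mouse gliomas, in 32 libraries from 17 mice. All mice were of a line the labels call XFM, which the sources used here do not expand, and had received DF-1:PDGFB cells in the brain at 5 to 6 weeks of age. DF-1 is a chicken fibroblast line, and PDGFB is a subunit of a platelet-derived growth factor. Mice entered the trial at a tumour volume of 20 to 40 mm3 and were then given Vehicle or BLZ945, an inhibitor of the macrophage growth factor receptor CSF-1R, each day until symptoms or 26 weeks of age. From each tumour, Cd11b+ Gr1- cells were sorted as tumour-associated macrophages (TAM), which here include microglia, and PDGFRA+ cells as tumour cells (TC).

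The 5 Vehicle mice (54359, 54363, 57098, 57682 and 64247) received no inhibitor. The 6 Endpoint mice (49823, 49825, 49830, 49831, 49843 and 49845) had BLZ945 and tumours that the labels also call dormant. The 5 Rebound mice (49041, 49059, 49827, 49834 and 49849) had BLZ945, and the labels define Rebound no further. For TC libraries the mice were the same, except that Rebound mouse 49692 stands in place of 49834. The agent label reads BLZ945 in all libraries, so treatment was read from the stage label. The design text sets out these 3 stages and 2 sorts for comparison, and the series title names an IGF1 loop in resistance to CSF-1R inhibition.

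Fc receptors bind the constant region of antibodies. In mice, Fcgr1, Fcgr3 and Fcgr4 encode activating receptors for immunoglobulin G, and each signals through Fcer1g, the common gamma chain, whose tyrosine motif (ITAM) recruits the kinase Syk. Fcgr2b encodes the inhibitory receptor, whose motif (ITIM) recruits the phosphatase SHIP1, the product of Inpp5d. Fcgrt encodes the heavy chain of FcRn, which pairs with beta-2-microglobulin and returns antibody from endosomes to the cell surface. Fcrls is an Fc receptor-like gene of the mouse that is widely used as a marker of microglia, the resident macrophages of the brain. Macrophages use the activating receptors to take up cells and particles coated with antibody.

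In GRCm38 (mm10) with GENCODE M21, all 7 are protein-coding genes, and 4 lie close together on chromosome 1. These are Fcgr2b (170958617 to 170976547, minus strand), Fcgr4 (171018920 to 171029761, plus strand), Fcgr3 (171051174 to 171064935, minus strand) and Fcer1g (171229572 to 171234365, minus strand). Fcgr1 (96282909 to 96293969) and Fcrls (87250758 to 87263738) lie on the minus strand of chromosome 3, and Fcgrt (45092990 to 45103851) lies on the minus strand of chromosome 7.

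Fcgr3 and Fcgr2b carry nearly the same coding sequence over part of their antibody-binding region, which bears on how reads could be counted. The stretch below is shown because a read of 50 bases inside it fits both genes unless it covers the 1 base that differs, which is in capitals. It runs across exons 3 and 4 of both genes and is coding over all 243 bases. In Fcgr3 these are bases 313 to 555 of transcript Fcgr3-201 (chr1:171054053-171057792, introns included), and in Fcgr2b they are bases 402 to 644 of Fcgr2b-201 (chr1:170966560-170968081, introns included), both from GENCODE M21.
Fcgr3: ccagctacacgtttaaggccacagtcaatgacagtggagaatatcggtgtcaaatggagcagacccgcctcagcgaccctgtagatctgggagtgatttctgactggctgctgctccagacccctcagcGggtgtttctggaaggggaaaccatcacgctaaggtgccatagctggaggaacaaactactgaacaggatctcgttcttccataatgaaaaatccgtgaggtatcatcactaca
Fcgr2b: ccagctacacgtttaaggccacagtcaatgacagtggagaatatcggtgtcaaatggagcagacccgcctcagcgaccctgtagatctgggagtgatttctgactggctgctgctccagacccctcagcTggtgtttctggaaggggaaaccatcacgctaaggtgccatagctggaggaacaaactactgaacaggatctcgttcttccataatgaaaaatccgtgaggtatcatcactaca
Of the distinct 50-base words in the coding transcripts, 10.2% of those of Fcgr3 also occur in Fcgr2b, and 4.48% of those of Fcgr2b occur in Fcgr3. With all other genes counted, 10.7% of the Fcgr2b words occur in another of 146 genes, Fcgr3 included. How the counting treated such reads is not given in the sources used here, so the counts of Fcgr3 and Fcgr2b, and the ratios to Fcgr2b below, are uncertain to that extent. The other 5 members shared no 50-base word with any other gene. Exons of Fcgr2b also overlap those of Gm38204 over 155 bases, and the library kit does not mark strand.

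The bases before the start site are shown for Fcgr1 and Fcgr4, the activating receptors whose windows held a match to a searched motif. The following 3 motifs were searched on both strands in the 300 bases around each start (250 before, 50 after), from the RefSeq table of GRCm38.p6, which holds all 7 members. They were the STAT element GAS (TTCNNNGAA), a PU.1 box (GAGGAAGT) and the core of the interferon element ISRE (GAAA, any 2 bases, GAAA). Matches are in capitals, in the 250 bases before the start, written along the gene's strand.
Fcgr1, minus strand, chr3:96293970-96294219: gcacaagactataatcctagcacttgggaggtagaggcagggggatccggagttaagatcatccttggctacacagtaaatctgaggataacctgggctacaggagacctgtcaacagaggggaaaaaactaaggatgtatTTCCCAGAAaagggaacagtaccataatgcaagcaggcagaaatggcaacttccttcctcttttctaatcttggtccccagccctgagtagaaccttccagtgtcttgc
Fcgr4, plus strand, chr1:171018676-171018925: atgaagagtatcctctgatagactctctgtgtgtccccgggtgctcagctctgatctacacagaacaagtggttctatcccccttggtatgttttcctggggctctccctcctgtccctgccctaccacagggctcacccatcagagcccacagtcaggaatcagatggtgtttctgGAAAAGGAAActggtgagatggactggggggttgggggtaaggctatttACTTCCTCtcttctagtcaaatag
The Fcgr1 window held a GAS match, as did 8.3% of the 32851 windows in the table. The Fcgr4 window held an ISRE core match, as did 3.44% of windows, and a PU.1 box on the other strand, as did 3.2%. None of these letters were found in the windows of the other 5 members, which says nothing about the factors themselves.

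Total counts in TAM libraries were 25.6 to 30.4 M in Vehicle, 9.54 to 15.8 M at Endpoint and 15.4 to 19.6 M at Rebound. In TC libraries they were 13.1 to 23.0, 4.18 to 14.0 and 10.5 to 16.5 M. Total count and stage therefore cannot be told apart in any TAM comparison with Vehicle. Endpoint and Rebound TAM totals overlapped only between 15.4 and 15.8 M. Every count in the 22 BLZ945 libraries was even, against 47.1 to 49.5% of the nonzero counts in Vehicle libraries, so this feature of the files and the treatment cannot be told apart in any comparison with Vehicle. Halving those counts changed no call on a member, but it leaves each gene's share of its library as it was. It therefore cannot separate the even counts from the treatment. The sort labels held in the TAM libraries: all 8 myeloid and all 8 microglia markers were detected in each, with summed myeloid CPM of 34929 to 60193 in Vehicle, 21558 to 24092 at Endpoint and 16027 to 24427 at Rebound. The TC label was less clear at Endpoint. Markers of tumour cells and oligodendrocyte progenitors summed to 207 to 1599 CPM there. They summed to 1741 to 6058 CPM in Vehicle TC and 1602 to 5316 in Rebound TC. Oligodendrocyte markers summed to 17801 to 28063 CPM in Endpoint TC, against 2443 to 14977 in Vehicle and 710 to 14566 at Rebound. The share of tumour cells in the TC libraries was not tested. Among the TAM libraries, those of Rebound mice 49041 and 49059 had the lowest sums of microglia markers, 17043 and 11832 CPM. They also had the highest sums of the 9 T and NK cell markers, 123 and 241 CPM. That sum was 43.1 CPM in the TAM library of Rebound 49849 and at most 30.1 in the TAM libraries of the other mice. Rebound results whose call or sign changes without these mice are also given without them.

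Levels are CPM, counts scaled to a common library size by TMM, and levels of different genes are compared only per kilobase of the exons of coding transcripts. In Vehicle TAMs the order per kilobase was Fcrls (2002 ± 933 CPM per kb), Fcer1g (1833 ± 285), Fcgr3 (1123 ± 181), Fcgr1 (234 ± 28.05), Fcgr4 (108 ± 38.4), Fcgrt (108 ± 31.5) and Fcgr2b (85.8 ± 8.48; SD, n = 5 for each). Fcrls and Fcer1g did not differ beyond their spread, nor did Fcgr4, Fcgrt and Fcgr2b. The place of Fcgr2b depends on its length, since with its shortest coding transcript of 1.08 kb it would stand at 302 CPM per kb. At Endpoint the order was Fcer1g (1670.3 ± 339 CPM per kb), Fcgr3 (504 ± 59.3), Fcgr1 (149 ± 7.83), Fcrls (101 ± 162), Fcgr2b (81.8 ± 6.37), Fcgrt (74.2 ± 16.1) and Fcgr4 (62.3 ± 8.78; SD, n = 6 for each). Over all 6 mice Fcrls did not differ beyond its spread from Fcgr1 or from the 3 genes below it. Its mean and place rest on mouse 49843, at 430 CPM per kb. In every other Endpoint mouse Fcrls lay below the lowest value of Fcgr1 (143 CPM per kb) and of Fcgr2b (73.9).

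**Figure D1:**
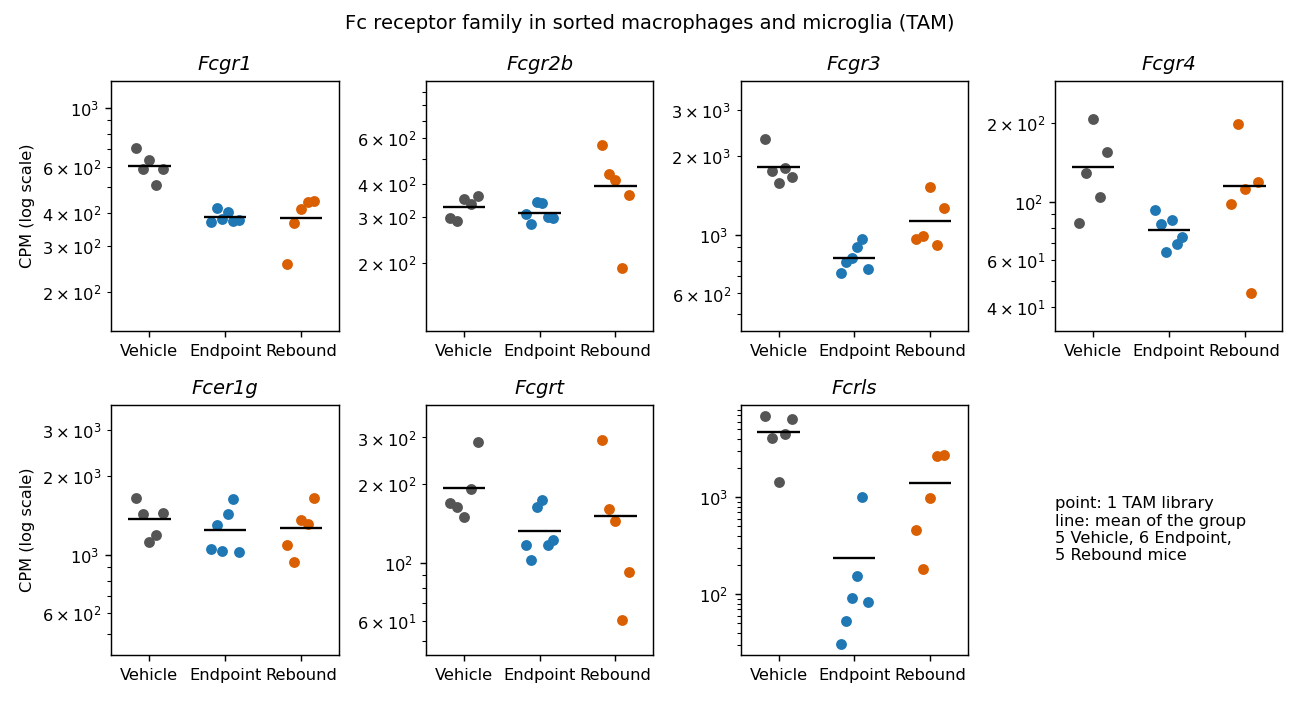
Level of each of the 7 genes in CPM (log axis) in every TAM library, by stage; points are libraries and lines are group means. All Endpoint and Rebound points of Fcgr1 and Fcgr3 sit below all Vehicle points, and 5 of 6 Endpoint points of Fcrls lie between 30.8 and 156 CPM, with mouse 49843 at 1004.

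Endpoint TAMs were compared with Vehicle TAMs to ask how the family stood in tumours labelled dormant after the inhibitor. All 3 activating receptor genes and Fcrls fell, while the shared signalling chain Fcer1g and the inhibitory receptor Fcgr2b did not pass the test. In all, 4 of 7 members were called lower and none higher by edgeR at an adjusted p under 0.05, beside a background of 19.3% of the 13315 genes tested called lower, 13.7% higher and 33% either way. The median log2 fold change of the 7 was -0.65, against -0.03 over all genes tested. The summed marker levels of several cell types also differed between these groups without overlap. Besides the myeloid and microglia sums, these were dendritic cells (32.1 to 68.4 CPM at Endpoint, 89.3 to 167 in Vehicle) and endothelial cells (10.2 to 25.5 and 31.6 to 63.0), which were lower. Sums of astrocytes (246 to 605 and 94.5 to 227) and of choroid plexus and ependymal cells (57.0 to 148 and 2.36 to 6.26, with 2 of 7 markers at 0 in all Endpoint libraries) were higher. Sums of monocyte and blood-derived macrophage markers overlapped (34.3 to 281 CPM at Endpoint, 104 to 1530 in Vehicle), with medians of 61.2 and 280 CPM. Neutrophil sums overlapped as well (388 to 1130 and 599 to 1358). The part of all these cells in the results on the family was not tested. In these bulk samples, fewer cells of a type and less RNA per cell cannot be told apart.

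Fcgr3, the low-affinity activating receptor, stood at 2334, 1766, 1583, 1799.9 and 1667 CPM in the Vehicle mice. In the 6 Endpoint mice it ran from 715 to 969 CPM with a median of 803. The 2 groups did not overlap, and the highest Endpoint mouse lay well under the lowest Vehicle mouse. The means were 1830.0 ± 295 and 822 ± 96.7 CPM (SD, n = 5 and 6), a difference of -1.16 on the log2 scale (edgeR, SE 0.165, adjusted p = 5.71e-05), or 2.23-fold lower. This call held in all 18 alternatives run, over a range of -1.27 to -0.73.

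Fcgr1, the high-affinity receptor for immunoglobulin G, was at 707, 587, 636, 509.9 and 586 CPM in the Vehicle mice and at 369 to 419 CPM at Endpoint, with a median of 377. The Endpoint mice were tightly grouped and all below Vehicle. The difference was -0.65 on the log2 scale (edgeR, SE 0.1498, adjusted p = 0.00280), from 605 ± 72.6 to 386 ± 20.3 CPM, or 1.57-fold lower. It was called in 17 of 18 alternatives and lost when libraries were scaled by their totals alone (-0.22, adjusted p = 0.20). That scaling moved the median of all genes from -0.03 to 0.39, and relative to the median Fcgr1 stood at -0.61 under it and at -0.62 in the TMM fit.

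Fcgr4, an activating receptor of intermediate affinity, was at 83.0, 129, 207, 105 and 156 CPM in the Vehicle mice and at 64.5 to 93.7 CPM at Endpoint, with a median of 78.2. The groups overlapped through Vehicle mouse 54359, which at 83.0 CPM lay within the Endpoint range. On the log2 scale the groups differed by -0.80 (edgeR, SE 0.276, adjusted p = 0.0329). This call was less secure than those of Fcgr1 and Fcgr3: it was lost without Vehicle mouse 54363, 57098 or 64247 or Endpoint mouse 49830, 49843 or 49845 (adjusted p of 0.0533 to 0.103), and with library totals (adjusted p = 0.305).

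Fcer1g, the gamma chain that all 3 activating receptors need, was at 1651, 1432, 1123, 1195 and 1454 CPM in the Vehicle mice. At Endpoint it ran from 1032 to 1639 CPM with a median of 1179.8. Of the 6 Endpoint mice, 3 lay below the lowest Vehicle mouse and 3 within the Vehicle range. The log2 fold change was -0.13, with a 95% interval of -0.51 to 0.24 (edgeR adjusted p = 0.596).

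Fcgr2b, the inhibitory receptor, was at 298, 289, 353, 335 and 361 CPM in the Vehicle mice and at 282 to 341 CPM at Endpoint, with a median of 304. All but 1 Endpoint mouse lay within the Vehicle range. The log2 fold change was -0.07, with a 95% interval of -0.47 to 0.34 (edgeR adjusted p = 0.812). With library totals both Fcgr2b (0.34) and Fcer1g (0.29) changed sign, without passing the test (adjusted p = 0.222 and 0.117).

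Fcgrt, the FcRn heavy chain, was at 169, 162, 149, 191 and 289 CPM in the Vehicle mice and at 102 to 173 CPM at Endpoint, with a median of 119. Of the 6 Endpoint mice, 4 lay below the Vehicle range. The log2 fold change was -0.54 with a 95% interval of -1.16 to 0.08 (edgeR adjusted p = 0.172). B2m, which encodes the partner chain of FcRn, was at 3732 ± 1269 CPM in Vehicle and 4851 ± 684 at Endpoint (0.38, adjusted p = 0.23).

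Fcrls had the lowest log2 fold change of the 7. It was at 6904, 4115, 1422, 4495 and 6433 CPM in the Vehicle mice and at 30.8 to 1004 CPM at Endpoint, with a median of 87.3. No Endpoint mouse reached the lowest Vehicle mouse, but Endpoint mouse 49843, at 1004 CPM, stood far above the other 5, of which the highest was at 156. Endpoint against Vehicle was -4.31 on the log2 scale (edgeR, SE 0.967, adjusted p = 0.00351), the 86th lowest of the 13315 genes tested. Without mouse 49843 it was -5.82 (adjusted p = 0.000115).

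**Figure D2:**
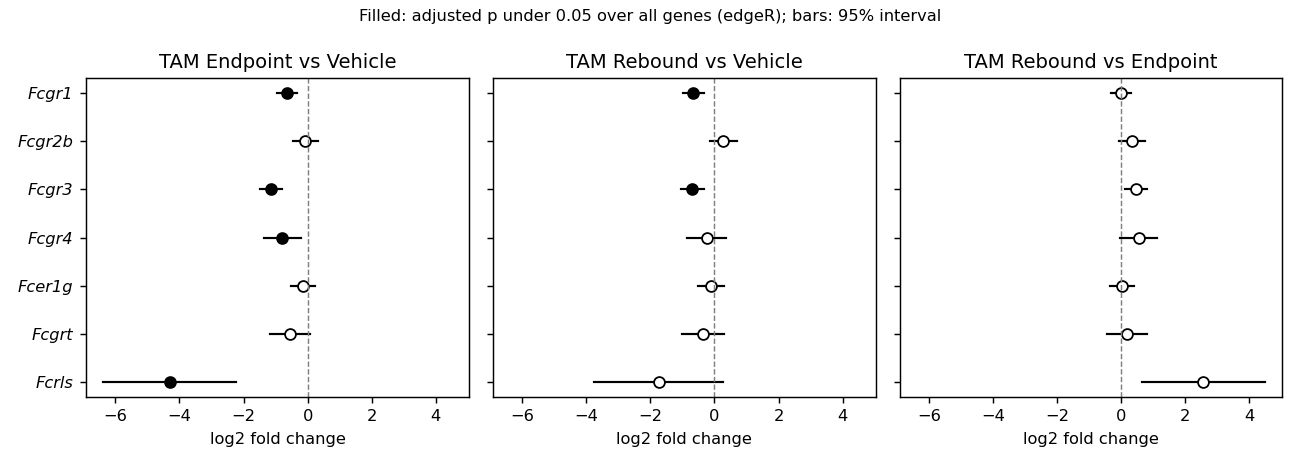
Log2 fold change of each member in the 3 comparisons of TAM stages, with 95% intervals; filled points passed an adjusted p of 0.05. Endpoint against Vehicle has 4 filled points, from -0.65 to -4.31, Rebound against Vehicle has 2, and Rebound against Endpoint has none.

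Since Fcrls marks microglia, its change was set beside 8 other microglia markers. In the comparison of Endpoint with Vehicle, 3 of the 8 fell, where 19.3% of all genes did: the purinergic receptor P2ry12 (-1.30), the secreted protein Olfml3 (-0.82) and the fructose transporter Slc2a5 (-2.06; edgeR adjusted p of 0.00237, 0.00527 and 2.41e-05). The other 5 did not pass, with log2 fold changes from -0.80 for Tmem119 to 0.64 for the transcription factor Sall1. All 8 were detected in every Endpoint library. Their summed level was 25621 to 28711 CPM at Endpoint and 29678 to 50777 in Vehicle, so the groups did not overlap, and the part of this in the Fcrls result was not tested. In mouse 49843 the sum was 27180 CPM, inside the range of the other Endpoint mice.

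**Figure D3:**
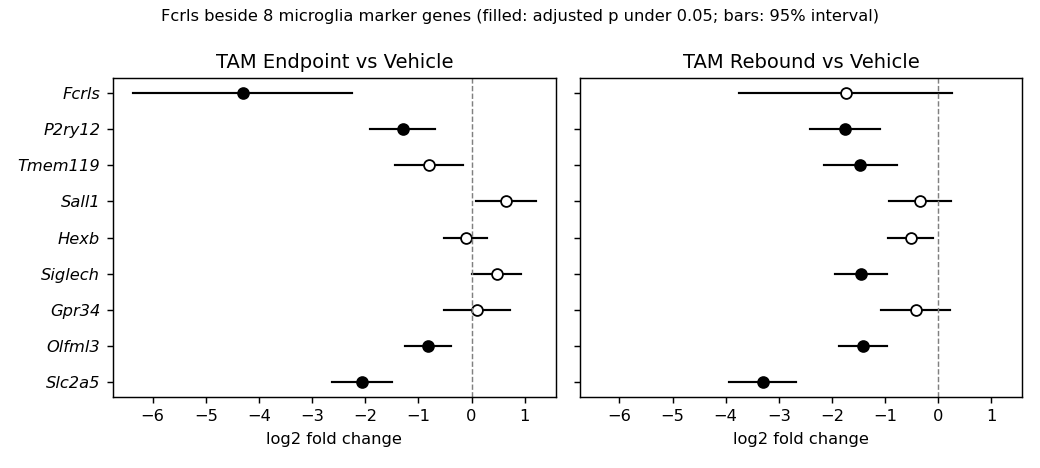
Log2 fold change with 95% interval of Fcrls and of 8 microglia markers in TAMs, Endpoint against Vehicle and Rebound against Vehicle; filled points passed an adjusted p of 0.05. At Endpoint Fcrls lies at -4.31 and the lowest of the 8 markers, Slc2a5, at -2.06, while at Rebound Slc2a5 (-3.31) lies below Fcrls (-1.74).

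Rebound TAMs were compared with Vehicle TAMs to ask how the family stood at the stage labelled Rebound. Fcgr1 and Fcgr3 were again lower than in Vehicle, and the other 5 members did not pass the test. That is 2 of 7 called lower and none higher by edgeR, beside a background of 7.73% of genes called lower and 14.7% either way. The median of the 7 was -0.36, against 0.02 over all genes. Both calls rest on libraries and settings that are named below.

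Fcgr1 was at 254, 365, 415, 440.2 and 442 CPM in Rebound mice 49041, 49059, 49827, 49834 and 49849, all below the lowest Vehicle mouse at 509.9. Rebound against Vehicle was -0.66 on the log2 scale (edgeR, SE 0.157, adjusted p = 0.0103). Fcgr3 was at 972, 992, 1526, 921 and 1276 CPM in the same mice, also all below Vehicle, whose lowest mouse was at 1583. Its difference was -0.69 on the log2 scale (edgeR, SE 0.173, adjusted p = 0.0136). Without Rebound 49041 and 49059, Fcgr1 was at -0.49 (adjusted p = 0.0618) and Fcgr3 at -0.56 (0.0876), and without 49849 as well they were at -0.51 (0.142) and -0.59 (0.177). With the mouse as a block over all 32 libraries the values were -0.77 (0.0983) and -0.79 (0.246), and in a fit of only these 2 stages -0.65 (0.0518) and -0.68 (0.0582).

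Fcgr2b had a wide spread at Rebound (SD 136, against 32.3 CPM in Vehicle), at 567, 437, 414, 192 and 365 CPM in the same order of mice. Of the 5 Rebound mice, 4 lay above the highest Vehicle mouse and 49834 lay below the lowest. The log2 fold change was 0.27, with a 95% interval of -0.15 to 0.70 (edgeR adjusted p = 0.39). It was -0.02 without Rebound 49041 and 49059.

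Fcgr4 was at 98.7, 199, 112, 45.1 and 119 CPM, and Fcgrt at 294, 160.0, 144, 60.5 and 92.2 CPM, in Rebound mice in the same order. Mouse 49834 was the lowest Rebound mouse for Fcgr2b, Fcgr4 and Fcgrt alike. Neither Fcgr4 (-0.24, edgeR adjusted p = 0.614) nor Fcgrt (-0.36, 0.472) passed. Without Rebound 49041 and 49059, Fcgrt was at -0.96 (adjusted p = 0.0439).

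Fcer1g was at 1095, 944, 1361, 1320.1 and 1652 CPM at Rebound, with 2 mice below the Vehicle range, 2 within it and 1 just above (-0.11, 95% interval -0.50 to 0.29, edgeR adjusted p = 0.749). Fcrls was at 455, 183, 989, 2638 and 2709 CPM, with 2 of 5 mice inside the Vehicle range. Its log2 fold change was -1.74, with a 95% interval of -3.74 to 0.26 (edgeR adjusted p = 0.231), and with the mouse as a block it was -2.28 (adjusted p = 0.0399). The 2 Rebound mice with the lowest Fcrls, 49041 and 49059, were those with the lowest microglia sums and the highest T and NK sums among TAM libraries.

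Rebound and Endpoint TAMs, both from BLZ945-treated mice, were compared directly, and this comparison is not touched by the even counts. No member was called by edgeR, beside a background of 11.7% of genes called higher and 5.9% lower. The 2 members with the smallest edgeR p were under 0.05 before adjustment only. These were Fcgr3, from 822 ± 96.7 to 1138 ± 257 CPM (0.47 on the log2 scale, edgeR, SE 0.164, adjusted p = 0.0545), and Fcrls, from 236 ± 378 to 1395 ± 1203 CPM (2.56, SE 0.903, adjusted p = 0.0635). DESeq2 gave these 2 members adjusted p of 0.0236 and 0.0447, and the share of all genes that it called is not given here. Without Endpoint 49843, Fcrls was at 4.07 (edgeR adjusted p = 0.00185) and Fcgr3 at 0.52 (0.0466), and with the mouse as a block Fcrls was at 3.06 (0.00570). Fcgr3 also passed without Rebound 49041 (0.52, adjusted p = 0.0499), without 49041 and 49059 (0.60, 0.0473) and in a fit of only these 2 stages (0.45, 0.0462). So did Fcgr2b without Rebound 49834 (0.50, 0.0327) and Fcgr4 without the same mouse (0.75, 0.0417).

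The other 5 members did not pass in this comparison either. Fcgr1 was level, at 386 ± 20.3 and 383 ± 78.6 CPM (-0.01, 95% interval -0.33 to 0.30), as was Fcer1g (0.03, -0.35 to 0.40). Fcgr2b (0.34, edgeR adjusted p = 0.239), Fcgr4 (0.55, 0.178) and Fcgrt (0.18, 0.722) had wider intervals.

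The balance of activating to inhibitory receptor transcripts was then measured inside each library, as the ratio of the counts of an activating receptor to those of Fcgr2b. Such a ratio does not change with the scaling between libraries or with doubled counts. It was lower at Endpoint than in Vehicle for all 3 receptors. The ratios use the same counts as the edgeR tests above, so they are not separate support for those calls. The share of all genes whose ratio to Fcgr2b fell is not given here. In all, 9 exact permutation tests were run, 2-sided, with adjustment over the 9.

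For Fcgr3 the ratio to Fcgr2b was 7.83, 6.12, 4.49, 5.37 and 4.62 in the Vehicle mice and 2.32 to 3.24 at Endpoint, with a median of 2.56. The groups did not overlap. The mean log2 ratio was lower by 1.08 at Endpoint (exact permutation p = 0.00216, the smallest that 6 against 5 mice allow, adjusted p = 0.0195). For Fcgr1 the ratio was 2.37, 2.03, 1.80, 1.52 and 1.62 in Vehicle and 1.11 to 1.49 at Endpoint, with a median of 1.22, again without overlap (log2 difference -0.57, exact p = 0.00433, adjusted p = 0.0195). For Fcgr4 it was 0.278 to 0.587 in Vehicle and 0.189 to 0.304 at Endpoint, with overlap (-0.67, exact p = 0.0108, adjusted p = 0.0325). The Fcgr4 call was lost without any 1 of Vehicle mice 54363, 57098 or 64247 or Endpoint mice 49830, 49831, 49843 or 49845 (adjusted p of 0.0536 to 0.0714).

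At Rebound the ratios were spread widely, and none passed against Vehicle. That of Fcgr3 was 1.72, 2.27, 3.68, 4.79 and 3.50 in mice 49041, 49059, 49827, 49834 and 49849 (log2 difference from Vehicle -0.89, exact permutation p = 0.0238, adjusted p = 0.0536). That of Fcgr1 was 0.449, 0.835, 1.00, 2.29 and 1.21 in the same mice (-0.87, exact permutation p = 0.0556, adjusted p = 0.10), and that of Fcgr4 was 0.174 to 0.457 (-0.52, exact p = 0.143, adjusted p = 0.214). Mouse 49834, the Rebound mouse with the least Fcgr2b, had the highest Fcgr1 and Fcgr3 ratios. Without it both passed, at -1.17 for Fcgr1 and -1.06 for Fcgr3 (adjusted p = 0.0179 for each). Without 49041 and 49059 the differences from Vehicle were smaller, at -0.39 for Fcgr1 (adjusted p = 0.321) and -0.49 for Fcgr3 (0.161), and that of Fcgr4 was -0.53 (0.188). Without 49849 as well they were -0.29 (0.536), -0.41 (0.357) and -0.65 (0.257). Against Endpoint no ratio passed (adjusted p of 0.541 to 0.55), but that of Fcgr1 did without 49834 (-0.60, adjusted p = 0.0286), and that of Fcgr3 did without 49041 and 49059 (0.59, 0.0268).

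**Figure D4:**
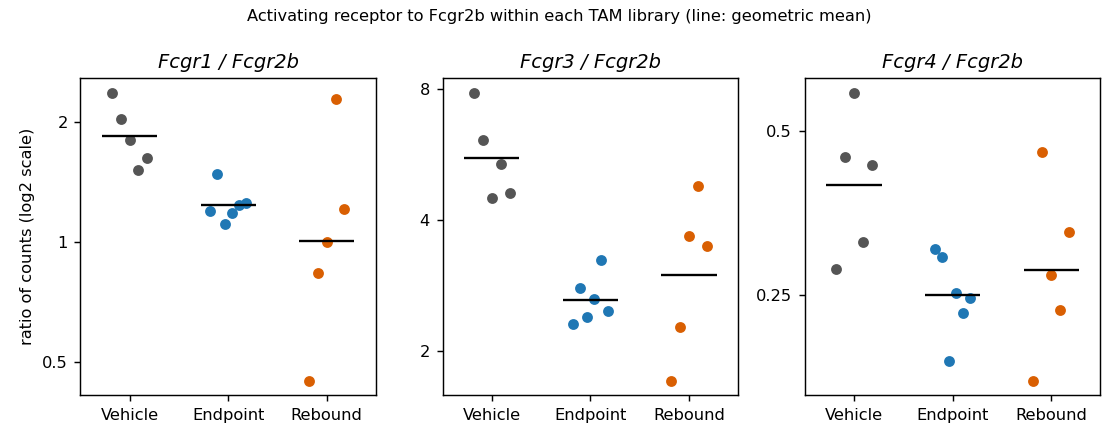
Ratio of the counts of Fcgr1, Fcgr3 and Fcgr4 to those of Fcgr2b in each TAM library (log2 axis), by stage; lines are geometric means. For Fcgr3 all Endpoint points (2.32 to 3.24) lie below all Vehicle points (4.49 to 7.83), and the Rebound points run from 1.72 to 4.79.

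TAM and TC libraries were compared to ask in which sort the family was expressed, on the scale of the fit over all 32 libraries. The Endpoint TC libraries were low in tumour-cell markers, as given above, so TC there names the sort and not the cell type. In Vehicle mice 7 of 7 members were higher in TAM, beside a background of 25.6% of 15668 genes (29.2% lower, 54.8% either way). In Endpoint mice 6 of 7 were (background 18.7%, and 51.1% either way), and in Rebound mice 7 of 7 (background 20.4%, with 27.4% lower and 47.8% either way). The member medians were 5.49, 3.33 and 6.84 on the log2 scale, against -0.12, -0.19 and -0.16 over all genes.

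Fcgr3, as an example, had 8.46 to 86.3 CPM in the Vehicle TC libraries against 2059.9 to 3065 in TAM (5.55 on the log2 scale, edgeR, SE 0.980, adjusted p = 2.27e-05). At Rebound 4 of 5 TC libraries had 0.701 to 1.46 CPM and mouse 49827 had 55.3, against 1079.7 to 1809 in TAM (6.84, SE 1.04, adjusted p = 3.96e-06). At Endpoint the TC libraries held 29.8 to 296 CPM, with mouse 49843 the highest (3.33, SE 0.806, adjusted p = 0.00110). The 8 myeloid markers were also highest in those TC libraries, with summed levels of 1878 CPM in Rebound 49827 (others 21.6 to 42.3) and 4314 CPM in Endpoint 49843 (others 799 to 3169). Their part in the TC levels of the family was not tested.

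As a share of the TAM level, the TC level of Fcgr1, Fcgr2b, Fcgr3, Fcgr4, Fcer1g and Fcrls was 1.44 to 3.38% in Vehicle, 7.94 to 17.7% at Endpoint and 0.354 to 1.09% at Rebound. The median share over 8 myeloid markers was 1.22, 10.2 and 0.894%, and over 8 microglia markers 1.67, 7.58 and 1.39%. Fcgrt stood apart from the other 6, at 5.65, 70.1 and 16.6%.

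Fcgrt in TC libraries was at 13.4, 11.0, 24.3, 5.60 and 14.5 CPM in Vehicle mice and at 76.0 to 142 CPM at Endpoint, with a median of 112. It was at 73.0, 16.7, 23.9, 19.6 and 17.5 CPM in Rebound mice 49041, 49059, 49692, 49827 and 49849. Every Endpoint TC library lay above every Vehicle and Rebound one. At Endpoint Fcgrt was the member whose level did not pass between TAM and TC (0.51, SE 0.356, 95% interval -0.21 to 1.24, edgeR adjusted p = 0.235). In Vehicle it was higher in TAM by 4.14 (adjusted p = 5.54e-09) and at Rebound by 2.59 (6.8e-06). The 7 choroid plexus and ependymal markers summed to 5174 to 183850 CPM in the Endpoint TC libraries, and the T and NK markers to 9.82 to 3131 CPM. In Rebound TC 49041 and 49827 the former summed to 754 and 932 CPM, with Fcgrt at 73.0 and 19.6 CPM. The part of these cells in the Fcgrt level was not tested. B2m had 419 ± 197 CPM in Vehicle TC and 2358 ± 1009 in Endpoint TC.

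Fcrls at Endpoint was the least secure of the TAM to TC calls (2.51, SE 1.06, edgeR adjusted p = 0.0478). Mouse 49843 had both the highest TAM level, 1119 CPM on this scale, and the highest TC level, 236 CPM, against 0.644 to 16.7 CPM in the other Endpoint TC libraries. Without its TAM library the difference was 1.05 (adjusted p = 0.385). The call was also lost without TAM 49831 or any 1 of TC 49823, 49825, 49830, 49831 and 49845 (adjusted p of 0.0522 to 0.0908), and with size factors by RLE, with library totals and without the filter on low counts (0.0525 to 0.0633).

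**Figure D5:**
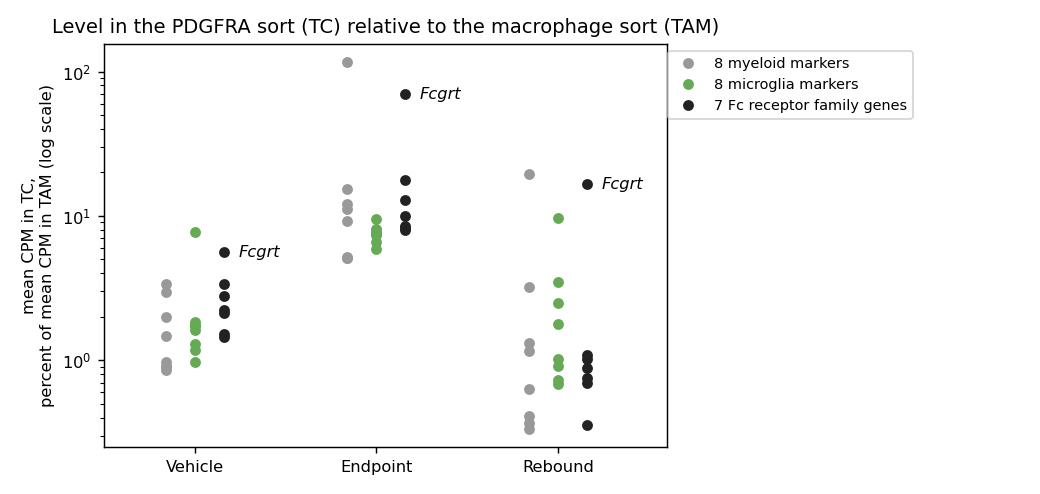
Mean CPM in TC libraries as a percent of the mean in TAM libraries (log axis), by stage, for 8 myeloid markers, 8 microglia markers and the 7 family genes. Fcgrt lies at 5.65, 70.1 and 16.6%, above the other 6 members in each stage; the highest myeloid point at Endpoint, at 116%, is the leukocyte gene Ptprc, which T cells also express.

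The genes around the receptors were examined through lists chosen as described in the processing section. Their counts stand beside shares of all genes tested of 13.7% higher and 19.3% lower for Endpoint against Vehicle, 7% and 7.73% for Rebound against Vehicle, and 11.7% and 5.9% for Rebound against Endpoint. Of 4 other Fc receptor genes tested, of 12 listed, Fcrl1, an Fc receptor-like gene best known from B cells, fell at Endpoint, from 57.7 to 12.01 CPM (-2.26, edgeR adjusted p = 0.000194), and at Rebound, to 17.8 CPM (-1.69, 0.00790). Of 6 tested receptors that also pair with the gamma chain, 1 rose and 3 fell at Endpoint, and 4 were higher and 1 lower at Rebound than at Endpoint. The one that rose was Lilra5, from 9.97 to 54.5 CPM (2.46, adjusted p = 2.63e-05), and it was lower again at Rebound, at 17.1 CPM. Those that fell were Clec4d, Clec4n and Lilra6, with mean levels of at most 12.6 CPM in Vehicle.

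Below the receptors, 10 of 20 kinases, adaptors and lipid enzymes fell and none rose at Endpoint (median -0.58, against -0.03 over all genes), where 19.3% of all genes fell and 13.7% rose. Syk fell from 200.3 to 97.9 CPM (-1.03, edgeR adjusted p = 9.42e-05). It was lower than Vehicle at Rebound as well (-0.52, 0.0398) and higher than at Endpoint (0.51, 0.0286). The adaptor Lcp2 (-2.42), the Src-family kinase Fgr (-2.91) and the PI3K adaptor Pik3ap1 (-1.69) had the smallest p-values of the list. At Rebound against Endpoint 8 of 20 rose and none fell (11.7% and 5.9% of all genes), and against Vehicle 2 rose and 5 fell (7% and 7.73%).

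Of 11 phosphatases and adaptors that restrain such signalling, 7 fell and none rose at Endpoint (median -0.98), beside 19.3% and 13.7% of all genes. Inpp5d, the phosphatase that Fcgr2b recruits, fell from 1088 to 728 CPM (-0.58, edgeR adjusted p = 0.00604) and stood at 607 CPM at Rebound (-0.84 against Vehicle, 0.00239). Ptpn6, the phosphatase SHP-1, fell by 1.76 on the log2 scale at Endpoint (adjusted p = 3.23e-06). So genes on both sides of the pathway fell at Endpoint, the activating kinase Syk and the restraining phosphatases Inpp5d and Ptpn6. At Rebound against Vehicle 3 of the 11 fell, and against Endpoint 4 rose.

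Of 16 genes of the phagocytic cup and the NADPH oxidase, 8 fell and 2 rose at Endpoint (median -0.47). Of all genes 19.3% fell and 13.7% rose, so the share that rose was near the background. The GTPase Rac2 fell from 929 to 377 CPM (-1.30, edgeR adjusted p = 2.59e-05) and the oxidase subunit Ncf4 from 310.2 to 139 CPM (-1.16, 0.000650). At Rebound 3 rose and 4 fell against Vehicle, and 6 rose and none fell against Endpoint. Of 9 genes for DAP12 and its receptors, a parallel ITAM system, 4 fell and none rose at Endpoint, among them Trem2 (-0.98, adjusted p = 0.0173). At Rebound 3 of the 9 fell against Vehicle, and against Endpoint 4 rose and 1 fell. The chain itself, Tyrobp, did not pass, at 1877 ± 526.45 CPM in Vehicle and 1804 ± 484 at Endpoint (-0.06, 0.87), as Fcer1g did not.

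Of 9 tested transcription factors known to act on Fc receptor genes, 5 fell and 2 rose at Endpoint (median -1.05), beside 19.3% and 13.7% of all genes. Stat3 fell from 255 to 109 CPM (-1.22, edgeR adjusted p = 1.65e-05), Stat6 from 391 to 157 CPM (-1.31, 2.53e-05) and Cebpb from 16.2 to 6.06 CPM (-1.42, 0.00653), while Runx1 rose from 46.4 to 78.5 CPM (0.76, 0.00907). None of the 9 passed between Rebound and Vehicle, and against Endpoint 2 rose, Stat3 and Stat6, and 1 fell, Cebpa.

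Over the 16 TAM libraries, the genes most like each member by Pearson r of log2 CPM were found among the 13315 tested. This is a description only, since stage and depth differed together across these libraries. For Fcer1g the nearest was Tyrobp, the other ITAM chain (r = 0.91, and 0.95 after stage means were subtracted), then Gm1673 (0.90). For Fcgr3 they were Ncstn, a subunit of gamma-secretase, and Tmbim6 (both 0.96, and 0.73 and 0.71 within stages). For Fcgr1 they were the channel Trpv2 (0.92) and the transcription factor Etv5 (0.91), and for Fcgr4 Cebpb and the serpin Serpina3g (both 0.83). For Fcgr2b they were Tiam2 (0.83) and Nfil3 (0.81), for Fcgrt the lysosomal reductase Ifi30 (0.88) and Sertad1 (0.81), and for Fcrls Maged1 and the lysosomal sulfatase Galns (both 0.96).

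Among the members themselves, Fcgr3 and Fcrls had the highest r (0.87), which was 0.51 after stage means were subtracted. Fcgr2b and Fcgrt had an r of 0.71, and 0.88 within stages. Fcgr1 and Fcgrt had an r of 0.02 over all libraries and of -0.72 within stages. In the Rebound group, mouse 49041 had the least Fcgr1 and the most Fcgr2b and Fcgrt, and mouse 49834 the least Fcgr2b and Fcgrt and the second most Fcgr1.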

How the data were processed

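RNA was measured in 32 libraries of sorted cells, prepared with a SMART-Seq kit that does not mark strand and sequenced as 2 reads of 50 bases, per the labels' protocols. The authors deposited raw read counts for each gene symbol. STAR 2.3.0e, SAMtools and the build mm10 are named in the submitters' processing notes. What program and annotation made the counts is not given in the sources used here. Total counts were 4.18 to 30.4 M per library.

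Counts were tested with edgeR 4.0.16 in R 4.3.3 (filterByExpr, TMM, glmQLFit with robust=TRUE, glmQLFTest), with Benjamini-Hochberg adjustment over all genes tested and a threshold of 0.05. The 16 TAM libraries entered one fit (13315 genes tested), and all 32 a joint fit of 6 groups (15668 genes). Replicates within a group are different mice, and the joint fit did not pair the TAM and TC libraries of a mouse. Ratios to Fcgr2b were taken with 0.5 added to each count and tested by exact 2-sided permutation. Alternatives were other scaling, DESeq2 1.42.0, no filter, BLZ945 counts halved, each mouse left out and only 2 stages. The mouse was also entered as a block, with limma 3.58.1 between stages and with edgeR over 15 mice between TAM and TC. In addition, 2 sets of Rebound mice were left out, which was added after seeing the data. The scripts were tested on simulated data.

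Both sorts were sequenced from 15 mice, so the mouse number pairs libraries by animal; deviations from group means correlated at 0.01 to 0.34 within mice. The 7 members, the gene lists and the marker lists were chosen with earlier results of these data known. Named from each list were at most 4 called genes with the smallest p in the comparison, with B2m, Syk, Inpp5d and Tyrobp always named; microglia markers and Ptprc come from the marker lists. The 2 genes most like each member were named. Gene positions are from GENCODE M21 and promoters from RefSeq.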

Additional observations from a re-analysis of the deposited data

Results flagged for a closer look

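Levels in CPM were examined for a mouse far from the rest of its group, in 42 checks of 7 genes in 6 groups. The rule would flag about 1 in 20 if values were normal and checks independent. The 7 genes share the same libraries, so the number flagged cannot be set against that rate. Of the 42 checks, 12 showed such a mouse. Of the 12, 10 come from Endpoint mouse 49843 (5) and the TC library of Rebound mouse 49827 (5). The reason was not tested.

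In the TC library of Endpoint mouse 49843, Fcgr1 was at 94.6 CPM (others 16.8 to 39.2), Fcgr3 at 296 (29.8 to 101), Fcer1g at 557 (50.2 to 195) and Fcrls at 236 (0.644 to 16.7). In the TAM library of the same mouse, Fcrls was at 1004 CPM (others 30.8 to 156). In the TC library of Rebound mouse 49827, Fcgr1 was at 13.5 CPM (others 0.194 to 1.67), Fcgr3 at 55.3 (0.701 to 1.46), Fcgr4 at 4.45 (0.0876 to 0.35), Fcer1g at 75.6 (1.07 to 2.505) and Fcrls at 23.1 (0.777 to 1.88). In the TC library of Rebound mouse 49041, Fcgrt was at 73.0 CPM (others 16.7 to 23.9). In the TAM library of Vehicle mouse 54359, Fcgr3 was at 2334 CPM (others 1583 to 1799.9).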

How the results depend on the processing

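The 21 fold changes of members between TAM stages, those between TAM and TC, the 9 ratios and the counts of calls were recomputed under each alternative. Of the recomputed member fold changes, 677 kept direction and side of the threshold, 26 lost their call, 12 gained one and 25 changed sign. Against Vehicle at Endpoint, Fcgr3, Fcrls and the Fcgr1 and Fcgr3 ratios kept their calls in every alternative run. Over the 18 alternatives for that comparison, 3304 to 4952 of all genes were called. With library totals, 2 members were called there (Fcgr3 and Fcrls), and Fcgr2b (0.34) and Fcer1g (0.29) changed sign. That scaling moved the share of higher genes among all called from 41.5 to 76.8% (Endpoint against Vehicle), from 47.5 to 71.6% (Rebound against Vehicle) and from 66.4 to 37.8% (Rebound against Endpoint). It took the share between TAM and TC from 46.7 to 21.6% in Vehicle and from 42.7 to 19.9% at Rebound. Between TAM stages it changed the sign of Fcer1g for Rebound against Vehicle (0.087) and of Fcer1g (-0.20) and Fcgrt (-0.016) for Rebound against Endpoint. Without the filter on low counts, Fcer1g was at -0.0043 between Rebound and Endpoint.

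With the mouse as a replicate block, all genes called at Rebound went from 1961 to 1048 against Vehicle and from 2337 to 1174 against Endpoint, and members called went from 2 to 1 and from 0 to 1. The share of higher genes among those called was then 26.3% for Rebound against Vehicle. The block changed the calls of Fcgr1, Fcgr3 and Fcrls against Vehicle and of Fcrls against Endpoint, with the values given in the report, and no other member call between stages. In fits of only the 2 stages compared, Rebound against Vehicle had 999 genes and 0 members called, and Rebound against Endpoint had 1 member. The number of all genes called in the latter fit is not given here. Over the 20 alternatives for Rebound against Endpoint it ran from 592 to 2932. DESeq2 called Fcgr3 and Fcrls between Rebound and Endpoint, where the share of all genes that it called is not given here. It gave no adjusted p for Fcgr1, Fcgr3 and Fcer1g between TAM and TC.

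The next 2 alternatives were chosen after seeing the data. Without Rebound 49041, 49059 and 49849, 525 genes and 0 members were called against Vehicle and 592 genes against Endpoint, with Fcgr2b at -0.12 against Vehicle, and Fcgr1 at 0.15, Fcgr2b at -0.034, Fcgrt at -0.36 and the Fcgr1 ratio at 0.29 against Endpoint. Without 49041 and 49059, 1084 genes and 1 member were called against Vehicle and 1345 genes and 1 member against Endpoint, with Fcgr2b at -0.016 and Fcer1g at 0.073 against Vehicle, and Fcgr1 at 0.17, Fcgrt at -0.41, the Fcgr1 ratio at 0.18 and the Fcgr3 ratio at 0.59 against Endpoint. The cause of these shifts was not tested, though fewer mice also entered.

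With each mouse left out in turn, values between Rebound and Endpoint ran from -0.091 to 0.11 for Fcgr1 and from -0.11 to 0.12 for Fcer1g. For Fcgrt they ran from -0.21 to 0.38. In those runs 0 to 2 members were called, beside 1624 to 2556 of all genes. The Fcgr1 ratio ran from -1.17 to -0.58 against Vehicle and from -0.60 to -0.0075 against Endpoint, and the Fcgr3 ratio from -1.06 to -0.69 against Vehicle. The Fcgr4 ratio ran from -0.80 to -0.53 at Endpoint against Vehicle and from -0.026 to 0.32 at Rebound against Endpoint. In Rebound TC libraries Fcgr4 had 2 to 60 counts, so its values there are imprecise.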
